A study of Caenorhabditis elegans with 6 samples.

Results

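The 5.8S rRNA was followed as F31C3.11, the transcript of *rrn-2.1*, through short RNA libraries of *Caenorhabditis elegans* in which RNA polymerase III (Pol III) had been targeted by RNAi. It is 1 of the 2526 short transcripts in the table and was chosen by name, as the only 5.8S rRNA there, and not by its values. Its share of all counts was taken in each of the 6 samples, together with its ratio to the summed counts of the 5 copies of 5S rRNA in the table (ZK218.12, ZK218.16, ZK218.17, ZK218.18 and ZK218.19). The vector control worms (3 samples, numbered 1 to 3) were fed HT115 bacteria carrying the empty RNAi vector, and the *rpc-1* RNAi worms (3 samples, numbered 1 to 3) were fed bacteria expressing double-stranded RNA against *rpc-1*, which encodes the largest Pol III subunit. All worms were moved to these bacteria at the L4 larval stage and were collected as adults. The paper treated them as for its lifespan assays, where plates held FuDR (fluorodeoxyuridine) unless otherwise specified. Its wild-type strain was Bristol N2. All RNA was selected for lengths under 200 bases and demethylated before the libraries were made. Whole worms were used, so a smaller number of cells of one type and less RNA per cell cannot be told apart. The *rpc-1* mRNA is not a short transcript, and the knockdown itself was not analysed here.

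The rRNAs of a ribosome come from different polymerases. RNA polymerase I (Pol I) makes a long precursor from which the 18S, 5.8S and 26S rRNAs are cut, and in the mature large subunit the 5.8S rRNA is base-paired to the 26S rRNA. The 5S rRNA joins the same subunit but is transcribed from its own genes by Pol III, as are the nuclear tRNAs, the RNA of RNase P and the RNA of RNase MRP. The 5.8S rRNA is therefore a ribosomal RNA of the size range of the Pol III products that Pol III does not make, and its ratio to 5S rRNA sets a Pol I product against a Pol III product within each library.

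In the WBcel235 genome F31C3.11 occupies 153 bases of chromosome I, from 15064301 to 15064453 on the plus strand, between the 18S gene *rrn-1.1* (15062083 to 15063836) and the 26S gene *rrn-3.1* (15064838 to 15068346). The 18S and 26S transcripts, at 1754 and 3509 bases, were not in the table of short RNAs, so the 5.8S rRNA could not be set against another mature product of the same precursor. RefSeq lists 1 gene for 5.8S rRNA and 16 for 5S rRNA, of which 5 were in the table. Those 5 lie on chromosome V between 17115903 and 17121086, and are 119 bases (ZK218.12, ZK218.16 and ZK218.17) or 99 bases long (ZK218.18 and ZK218.19). Near-identical 5S copies share reads that Salmon divides between them, so the copies were summed. How reads of the other 5S genes were assigned was not tested.

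The counts on short transcripts summed to between 9362216 and 21685824 per sample. Control and RNAi samples that carry the same number departed from their group means in like ways, and replicate 1 stood apart in both groups. The labels do not say that replicates came from separate cultures, so the p-values measure only the spread between these samples. Nor do the labels say that samples of the same number belong together, so the pairing used below rests on these same counts.

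The 5.8S rRNA took up a large part of every library, and its share followed the replicate number rather than the treatment. In vector controls F31C3.11 had 1653118, 2744247 and 5592499 counts in replicates 1, 2 and 3. These were 9.13% (Wilson 95% confidence interval 9.12 to 9.14), 29.3% (29.28 to 29.34) and 30.3% (30.27 to 30.31) of all counts. In *rpc-1* RNAi it had 1852815, 5814002 and 5771786 counts, which were 9.56% (9.54 to 9.57), 29.0% (29.03 to 29.07) and 26.6% (26.60 to 26.63) of all counts. The 2 replicates numbered 1 were the lowest, and the control and RNAi values overlapped. The intervals cover counting error only, since PCR copies of a read are not independent molecules, and are far narrower than the spread between replicates.

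The mean share was 22.9% ± 11.9 (SD, n = 3 vector controls), and with *rpc-1* RNAi it was 21.7% ± 10.6 (SD, n = 3). The difference of -1.17 percentage points was smaller than either SD (exact two-sided permutation p = 0.70, where the smallest p that 3 against 3 samples allow is 0.10). By pairs of the same number, the share with *rpc-1* RNAi differed from its control by 0.43, -0.26 and -3.67 points, a mean of -1.17 ± 2.20 (SD, n = 3 pairs). The exact sign-flip test over pairs gave p = 0.75, with 0.25 as its smallest possible p. With *rpc-1* RNAi the share was 1.05, 0.991 and 0.879 times that of the control of the same number. Within a group, replicates 2 and 3 had 3.21 and 3.32 times the share of replicate 1 in vector controls, and 3.04 and 2.78 times in *rpc-1* RNAi. The mean difference turned to 2.03, 2.52 and 4.92 points without vector control replicate 2, vector control replicate 3 or *rpc-1* RNAi replicate 1, and its size also moved over 1.5 times without each of the other 3 samples, down to -8.06 points.

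**Figure D1:**
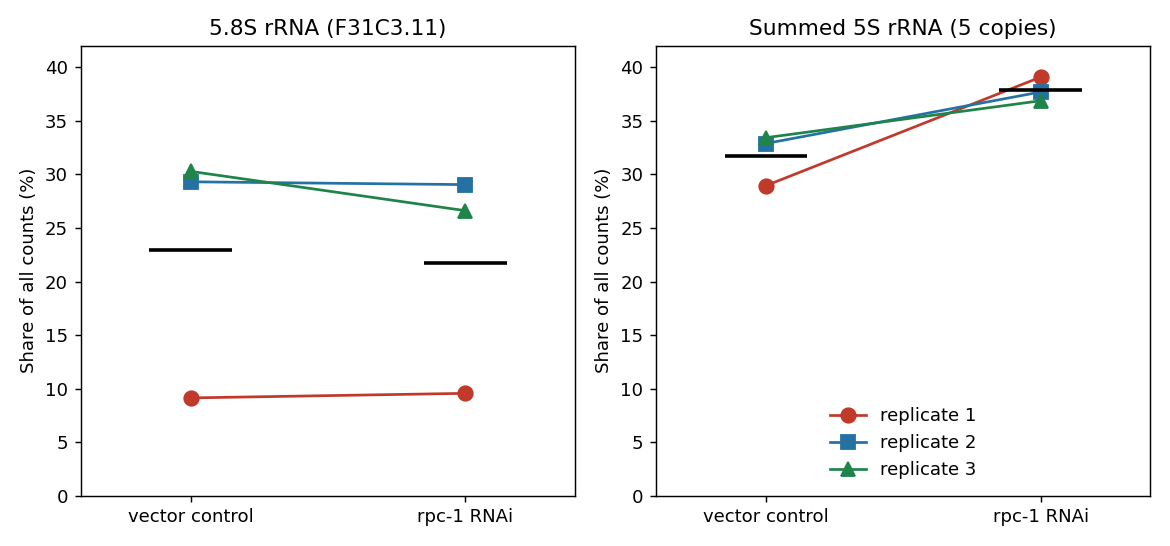
Share of all short-transcript counts (%, linear axis from 0) taken by 5.8S rRNA (F31C3.11) and by the 5 summed copies of 5S rRNA in each of the 6 samples, with lines joining samples of the same replicate number and a black bar for each group mean. The 5.8S share is 9.13% and 9.56% in the 2 replicates numbered 1 and between 26.6% and 30.3% in the other 4 samples, while the 5S share lies between 28.9% and 39.1%.

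The test across all transcripts made no call on the 5.8S rRNA. After scaling by median-of-ratios size factors, which take the typical transcript as steady, F31C3.11 had 1592890, 5477600 and 5132870 normalised counts in vector controls and 1586830, 4423070 and 4103140 in *rpc-1* RNAi. The log2 fold change of RNAi over control was -0.27 ± 0.79 (SE, DESeq2 Wald test, adjusted p = 0.990). In the same comparison 79 of 1083 tested transcripts, or 7.29%, were called at 10% FDR. Blocking on the replicate number gave a log2 fold change of -0.21 ± 0.20 (SE, adjusted p = 0.521), where 278 of 959 transcripts, or 29.0%, were called. The smaller SE goes with deviations of the 5.8S rRNA from its group mean that matched by number, at -1.16, 0.63 and 0.53 on the log2 scale in controls 1, 2 and 3 and -0.95, 0.53 and 0.42 with RNAi. The edgeR quasi-likelihood test gave a log2 fold change of -0.28 (adjusted p = 0.922). The fold change was 0.03 without vector control replicate 2 and 0.06 without *rpc-1* RNAi replicate 1, with no call in either case.

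The ratio of 5.8S to 5S rRNA was lower with *rpc-1* RNAi in each pair of samples with the same number, by a similar factor each time, but the groups overlapped. The 5 copies of 5S rRNA together had 5241945, 3078790 and 6172744 counts in vector controls and 7577710, 7545763 and 7997616 in *rpc-1* RNAi. Their share of all counts was 28.9%, 32.9% and 33.4% in controls and 39.1%, 37.7% and 36.9% with RNAi, so here all 3 RNAi samples lay above all 3 controls (exact two-sided permutation p = 0.10, the smallest possible). The ratio of 5.8S to 5S counts was 0.315, 0.891 and 0.906 in controls and 0.245, 0.770 and 0.722 with RNAi. Replicate 1 was again the lowest of its group, and RNAi replicates 2 and 3 stood above control replicate 1.

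The mean ratio was 0.704 ± 0.337 (SD, n = 3 vector controls), and with *rpc-1* RNAi it was 0.579 ± 0.291 (SD, n = 3). On the log2 scale the difference was -0.30 (exact two-sided permutation p = 0.50). By pairs it was -0.37, -0.21 and -0.33, a mean of -0.30 ± 0.08 (SD, n = 3 pairs), lower in 3 of 3 pairs. The exact sign-flip test gave p = 0.25, which is the smallest this test can give with 3 pairs, so it cannot pass a threshold of 0.05. In linear terms the ratio with RNAi was 0.775, 0.864 and 0.797 times that of its control. Without *rpc-1* RNAi replicate 1 the unpaired difference was 0.23, without vector control replicate 1 it was -0.81, and across the samples left out in turn it took values between these.

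**Figure D2:**
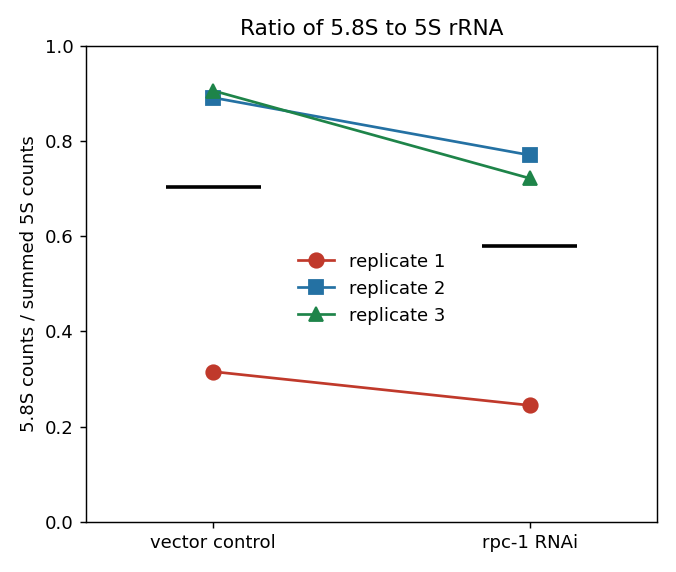
Ratio of 5.8S rRNA counts to summed 5S rRNA counts in each sample, on a linear axis from 0, with lines joining the vector control and *rpc-1* RNAi samples that carry the same replicate number and a black bar for each group mean. The 3 lines slope down, from 0.315 to 0.245, from 0.891 to 0.770 and from 0.906 to 0.722, while replicate 1 lies well below the other replicates in both groups.

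A ratio of counts depends on transcript length, so the levels of these RNAs were also compared per base of transcript. Per base, the ratio of 5.8S rRNA to summed 5S rRNA was 0.219, 0.630 and 0.635 in vector controls and 0.174, 0.555 and 0.512 in *rpc-1* RNAi. On this scale F31C3.11 ranked first of the 2526 transcripts in replicates 2 and 3 of both groups. In replicate 1 it ranked 5 in the control and 4 with RNAi. Of the counts on these 6 rRNA transcripts, 5.8S rRNA made up 24.0%, 47.1% and 47.5% in controls and 19.6%, 43.5% and 41.9% with RNAi.

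The single 5S copies moved in different ways, and the ratio depends on which are summed. ZK218.16, the most abundant copy in 4 of the 6 samples, had 2101449, 115868 and 2807023 counts in controls and 3878401, 4280917 and 4020347 with RNAi. ZK218.12 went from 2287, 1438262 and 0 counts in controls to 275068, 266492 and 195300 with RNAi. Control replicate 2, where ZK218.12 was high and ZK218.16 low, stands apart at both copies. ZK218.19 had 2419959, 1459465 and 2392720 counts in controls and 2507753, 2122412 and 2663008 with RNAi, and ZK218.18 had between 64205 and 1113565 counts per sample. ZK218.17, the scarcest copy, had 818, 990 and 1052 counts in controls and 4981, 5211 and 5396 with RNAi. Without ZK218.12 the log2 difference of the 5.8S to 5S ratio was -0.56, and against the most abundant copy of each sample it was -0.49.

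Other RNA classes were set against the 5.8S rRNA in the same way, as counts per 100 counts of F31C3.11, to see which RNAs kept a steady proportion to it. Nuclear tRNAs (143 transcripts), the adaptors of translation, had 108.1, 4.58 and 11.9 counts per 100 of 5.8S rRNA in vector controls and 11.7, 1.70 and 1.32 in *rpc-1* RNAi. The log2 difference was -3.21, -1.43 and -3.17 by pairs, with a mean of -2.60. This was the largest difference of the 10 classes, although RNAi replicate 1 overlapped the controls (exact two-sided permutation p = 0.20, 0.667 after Benjamini-Hochberg adjustment over 10 classes). The ncRNAs antisense to tRNA genes had more counts than the tRNAs in every sample. They took 20.7%, 7.48% and 6.88% of all counts in controls and 18.4%, 8.94% and 6.57% with RNAi. Whether the counting used the strand of reads is not stated. How reads were divided between tRNAs and these ncRNAs was not tested.

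The snoRNAs (196 transcripts), which guide modification and processing of rRNA, had 26.2, 17.5 and 21.7 counts per 100 of 5.8S rRNA in controls and 37.5, 21.99 and 27.96 with RNAi. All 3 pairs were higher with RNAi, by 0.52, 0.33 and 0.37 on the log2 scale, a mean of 0.41 ± 0.10 (SD, n = 3 pairs; exact sign-flip p = 0.25, 0.417 after adjustment). The groups overlapped, because RNAi replicate 2 lay between the controls. The snRNAs (61 transcripts), the RNAs of the spliceosome, were higher by 0.02, 0.10 and 0.44 on the log2 scale by pairs.

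RNase MRP RNA (E04F6.16, *mrpr-1*), part of the ribonuclease that in yeast cuts the rRNA precursor on the way to 5.8S rRNA, had 1.17, 1.14 and 1.03 counts per 1000 of 5.8S rRNA in controls. It had 1.22, 1.39 and 1.88 with RNAi, so the RNAi samples lay above the controls with no overlap. The mean log2 difference was 0.40 (exact two-sided permutation p = 0.10, the smallest possible, 0.667 after adjustment), and it did not pass the test. RNase P RNA (Y48G10A.7, *rpr-1*), which trims the 5′ ends of tRNA precursors, differed by -0.13, -0.49 and 0.47 by pairs.

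The 7SL RNA of the signal recognition particle (B0285.12, R144.15 and ZC155.8) differed from its controls by 0.29, -0.30 and 0.37 by pairs. The 7SL transcripts are 299 bases long and RNase P RNA is 253, beyond the size selection of under 200 bases. Whether their counts come from whole RNAs was not tested. Y RNA (F55G1.16, *yrn-1*), a small RNA bound by the Ro protein, had 6.28, 1.01 and 1.86 counts per 1000 of 5.8S rRNA in controls and 3.27, 0.713 and 1.43 with RNAi. It was lower in 3 of 3 pairs, with log2 differences of -0.94, -0.50 and -0.38. The mitochondrial tRNAs (22 transcripts), which the mitochondrial polymerase makes, had 259.7, 58.2 and 39.98 counts per 100 of 5.8S rRNA in controls and 243.9, 36.7 and 52.6 with RNAi. They went down in 2 pairs and up in 1, so their proportion to 5.8S rRNA had no steady direction. The 332 ncRNAs that lie antisense to tRNA genes differed by -0.24, 0.27 and 0.12. Of the 10 classes, 5S rRNA, nuclear tRNA, RNase MRP RNA, Y RNA, snoRNA and snRNA moved the same way in all 3 pairs, and no class passed either test.

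**Figure D3:**
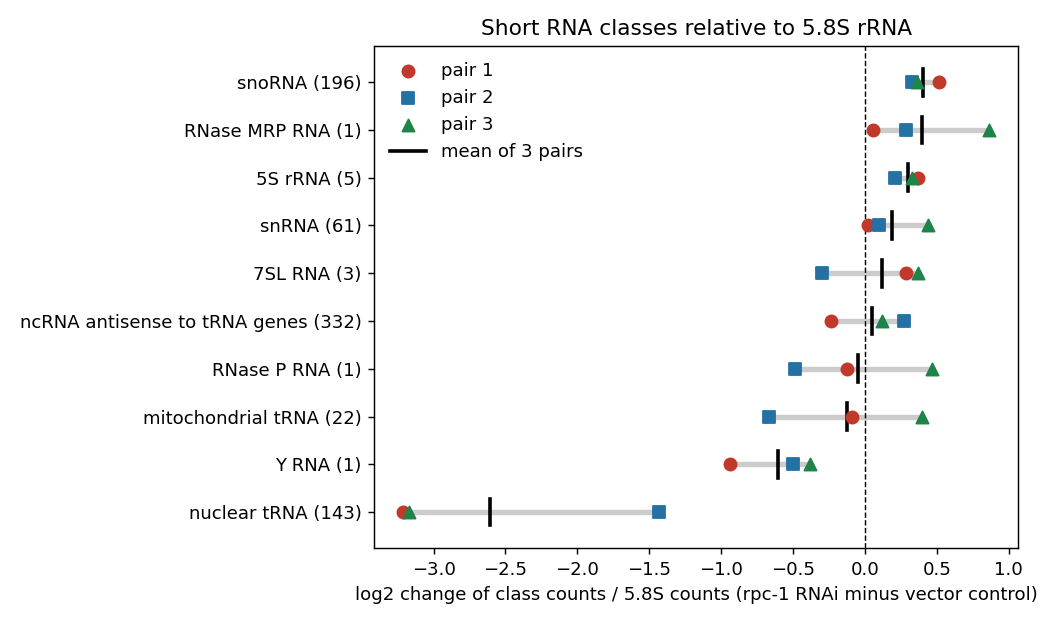
Log2 ratio of each RNA class to 5.8S rRNA, *rpc-1* RNAi minus vector control of the same replicate number (1 point per pair, with the mean of the 3 pairs as a black bar and their range in grey). Nuclear tRNAs are lowest at a mean of -2.60, snoRNAs are at 0.41 and 5S rRNA at 0.30 with the 3 pairs close together, and mitochondrial tRNAs, 7SL RNA, RNase P RNA and antisense ncRNAs have pairs on both sides of 0.

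The low share of 5.8S rRNA in replicate 1 was shared by some classes and not by others. As a log2 share, F31C3.11 in replicate 1 differed from the mean of replicates 2 and 3 by -1.71 in vector controls and -1.54 in *rpc-1* RNAi. RNase MRP RNA shifted by -1.59 and -1.95, snoRNAs by -1.28 and -0.94, RNase P RNA by -0.67 and -0.63, and snRNAs by -0.54 and -0.62. The other rRNA, 5S, shifted little, by -0.20 and 0.07, as did 7SL RNA, by -0.07 and 0.34. Y RNA shifted by 0.49 and 0.16, mitochondrial tRNAs by 0.72 and 0.93, antisense ncRNAs by 1.53 and 1.26, and nuclear tRNAs by 2.17 and 1.42. Shares sum to 100% within a library, so a class that is lower leaves room for others.

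**Figure D4:**
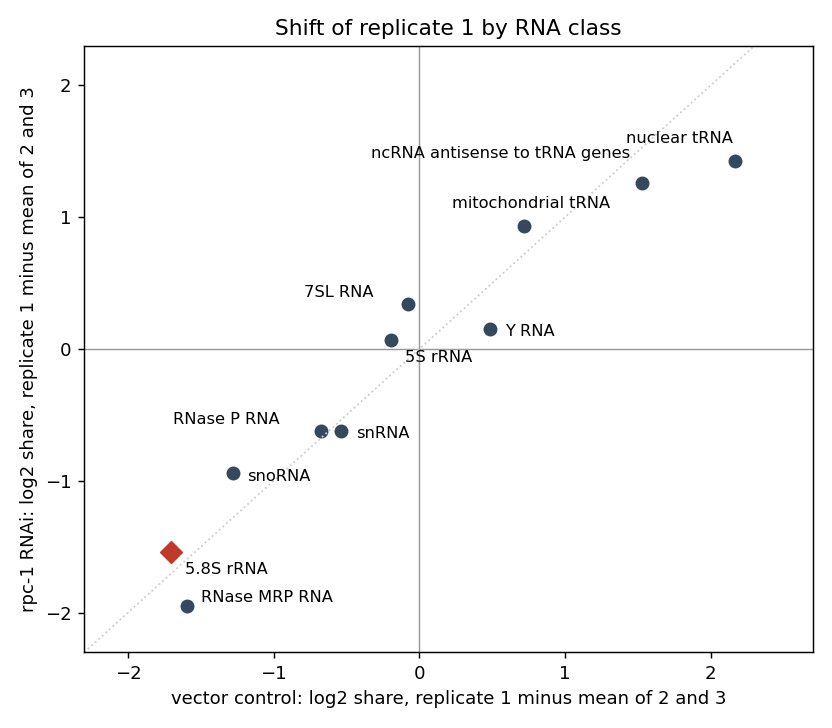
Log2 share of each RNA class in replicate 1 minus the mean of replicates 2 and 3, in vector controls (horizontal axis) and *rpc-1* RNAi (vertical axis), with a dotted line of equality. 5.8S rRNA (diamond, -1.71 and -1.54) and RNase MRP RNA lie at the lower left, nuclear tRNAs (2.17 and 1.42) at the upper right and 5S rRNA near the centre.

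Single transcripts showed the same split. Among the 464 transcripts with at least 100 counts in every sample, 205 were lower and 205 higher in replicate 1 of both groups, and 15 others were at least as low as F31C3.11 in both. Of 115 snoRNAs 106 were lower in both groups, while 29 of 34 nuclear tRNAs, 21 of 22 mitochondrial tRNAs and 124 of 164 antisense ncRNAs were higher. The shift also moved with transcript length. Of 115 transcripts of 121 to 200 bases, the length class of the 5.8S rRNA, 95 were lower in replicate 1 of both groups, with median shifts of -1.13 and -0.77. Of 199 transcripts of 81 to 120 bases only 49 were lower and 121 were higher, and of 130 transcripts of up to 80 bases 47 were lower and 72 higher. Length and class go together, since tRNAs are short. Within snoRNAs 46 of 52 with up to 120 bases were lower in both groups, as were 60 of 63 that were longer. Within snRNAs the counts were 16 of 27 with up to 120 bases and 16 of 17 that were longer, and among transcripts outside the listed classes 22 of 43 and 27 of 31. What set replicate 1 apart was not tested.

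The transcripts whose counts kept the steadiest proportion to 5.8S rRNA over the 6 samples were mostly snoRNAs. Likeness was measured as the SD over the 6 samples of the log2 ratio of a transcript's count to that of F31C3.11, and had a median of 1.04 over the 463 other transcripts with at least 100 counts in every sample. The closest was T19C4.17, an ncRNA of 194 bases on chromosome V (11175524 to 11175717), with an SD of 0.13. It had 21.2, 23.6 and 20.6 counts per 1000 of 5.8S rRNA in vector controls and 24.0, 18.6 and 21.4 in *rpc-1* RNAi, and so also had its lowest shares of all counts in the 2 replicates numbered 1. The next were the snoRNAs Y37E3.22 (SD of 0.19), Y23H5B.10 (0.19), T24H7.6 (0.20) and Y53F4B.48 (0.24), of 135 to 144 bases.

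Of the 50 transcripts most alike, 38 were snoRNAs, which made up 115 of the 463. The median SD of all snoRNAs was 0.52, against 1.38 for mitochondrial tRNAs and 1.70 for nuclear tRNAs. RNase MRP RNA was among the 50, at 0.31. Summed 5S rRNA, at 0.82, was less alike than the typical snoRNA. All these ratios share the F31C3.11 count, which was low in the 2 replicates numbered 1.

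**Figure D5:**
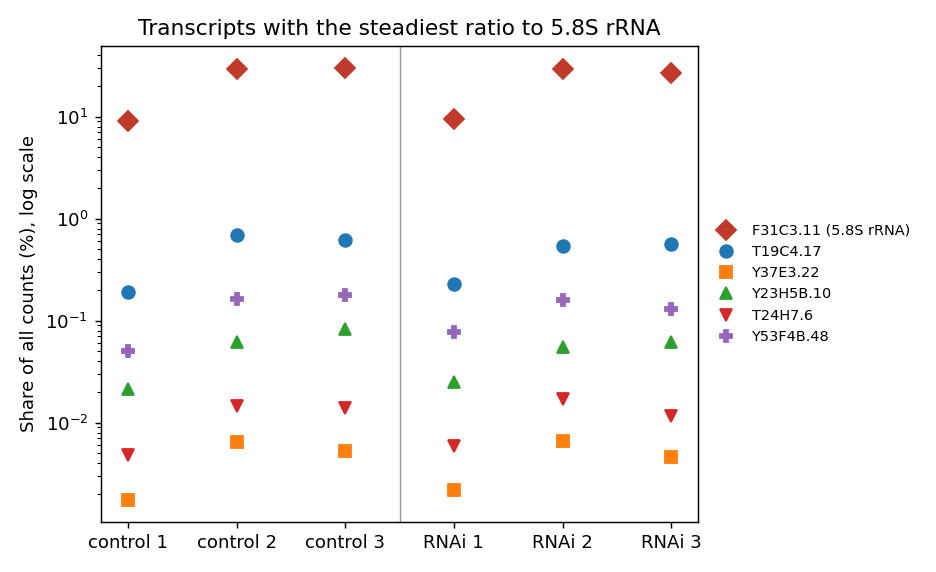
Share of all counts (%, logarithmic axis) of 5.8S rRNA (F31C3.11) and of the 5 transcripts with the steadiest ratio to it, in each of the 6 samples. All 6 are lowest in replicate 1 of both groups, at shares that run from 0.0017% for Y37E3.22 to 9.13% for F31C3.11 in control replicate 1.

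A neighbour of the 5.8S gene followed it in part. F31C3.16, chosen after its values were seen, is an ncRNA of 299 bases on the minus strand of chromosome I (15060861 to 15061159) that overlaps a 26S pseudogene, *rrn-3.56*, by 290 bases. It had 112268, 96191 and 125419 counts in vector controls and 107526, 158884 and 144064 in *rpc-1* RNAi. Relative to 5.8S rRNA this was 67.9, 35.1 and 22.4 counts per 1000 in controls and 58.0, 27.3 and 25.0 with RNAi, with replicate 1 the highest of each group. Its share was 0.620%, 1.03% and 0.679% in controls and 0.555%, 0.794% and 0.664% with RNAi, also lowest in replicate 1 but by less than that of F31C3.11. Its log2 fold change of -0.40 was not called (DESeq2, adjusted p = 0.975). Whether the counting used the strand of reads is not stated, so reads of the pseudogene and of the ncRNA cannot be told apart.

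The 5.8S rRNA was then used as the reference for the whole table, by setting the size factor of each sample in proportion to its F31C3.11 count. Relative to 5.8S rRNA, 59 of 986 tested transcripts were called at 10% FDR (5.98%, DESeq2), with 28 lower (2.84%) and 31 higher (3.14%) after RNAi. They held 26 of the 105 nuclear tRNAs tested, of which 18 were lower and 8 higher. Of these 26, 25 were also among the 35 tRNAs called with median-of-ratios size factors, with the same direction in all 25. The paper also names U6 and some snoRNAs as Pol III products. These were not separated from the snRNA and snoRNA classes, so counts of Pol III transcripts here leave them out. None of the 10 tested transcripts of the other Pol III classes (5S rRNA, 7SL, RNase P, RNase MRP and Y RNA) was called. One of them, ZK218.17, had an unadjusted p under 0.05, as it also did in edgeR, which called none of 11 (background 3.52% of 795 transcripts). With transcripts averaging under 10 counts left out, DESeq2 did call ZK218.17 (adjusted p = 0.0793). ZK218.17 was also called without vector control replicate 1 (DESeq2, adjusted p = 0.0961), and not without any other single sample. Leaving out vector control replicate 2, DESeq2 called ZK218.12, with a log2 fold change of 6.78 (adjusted p = 0.047). How reads were divided between near-identical 5S copies was not tested.

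Among called nuclear tRNAs that averaged 10 counts or more and whose groups did not overlap, the 3 largest falls relative to 5.8S rRNA were of transcripts that had no count after RNAi in any library. Scaled to 1000000 counts of 5.8S rRNA, F14B4.t1 (on chromosome I at 9267122 to 9267194) stood at 253756, 7786 and 32171 counts in vector controls and was at least 110630-fold lower in *rpc-1* RNAi, taking 3 counts per library as the floor (DESeq2, adjusted p = 6.45e-25). Without vector control replicate 1 this bound was 22575-fold, and without *rpc-1* RNAi replicate 1 it was 189047-fold. F38E9.t2 (X, 16461477 to 16461549) was at least 18558-fold lower, or 3744-fold without vector control replicate 1 and 31713-fold without *rpc-1* RNAi replicate 1. F28H6.t1 (X, 14115691 to 14115763) was at least 14330-fold lower, or 9924-fold without vector control replicate 1 and 24488-fold without *rpc-1* RNAi replicate 1. These bounds hold for counts as Salmon assigned them to single tRNA genes. How reads were divided between similar tRNA genes, or between these genes and antisense ncRNAs, was not tested.

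The 3 largest rises by the same rule were of scarce tRNAs. On the same scale T22F3.t4 (V, 3582131 to 3582202) stood at 15.7, 2.92 and 4.65 in controls, at 219.1, 95.3 and 180.9 with RNAi, and rose by 4.44 ± 1.01 on the log2 scale (DESeq2 estimate and its SE, adjusted p = 3.87e-04). ZK678.t2 (X, 15748031 to 15748101) had 4.23, 3.28 and 2.503 in controls and 47.5, 46.4 and 99.4 with RNAi, a log2 fold change of 4.30. T04D3.t1 (I, 13324995 to 13325066) had 20.0, 8.75 and 3.93 in controls and 389.1, 74.6 and 121.5 with RNAi, a log2 fold change of 4.18. All 6 of these tRNAs stayed past 10% FDR without any 1 sample and with the replicate block. They were chosen as called in these same samples, so this is not a separate test of them. Of the 3 that rose, the log2 fold change moved most for T22F3.t4 without vector control replicate 1 (5.43) and for T04D3.t1 without *rpc-1* RNAi replicate 1 (3.19), and it was 4.95 for T04D3.t1 without vector control replicate 1.

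With the replicate number as a block, far more transcripts differed from 5.8S rRNA, and the snoRNAs among them nearly all rose. Of 1056 tested, 338 were called (32.0%), of which 120 were lower (11.4%) and the rest higher (20.6%). Among nuclear tRNAs 62 of 135 were called, 43 lower and 19 higher, with 25 of the 26 earlier calls kept. Among snoRNAs 60 of 162 were called, 57 higher and 3 lower, against 1 of 162 without the block. Of 61 snRNAs 26 were called, 24 of them higher, but with the block edgeR called 9 of 55, and DESeq2 with median-of-ratios size factors called 9 of 58. The snoRNA share of 37.0% is near the background of 32.0%, and their calls in the higher direction, 57 of 162, stand beside 20.6% over all transcripts. Relative to 5.8S rRNA the median log2 change of the tested snoRNAs was 0.51 without the block and 0.52 with it. The edgeR test with the block called 31 of 153 snoRNAs, 29 of them higher, against 24.9% of 845 transcripts in all and 13.7% in the higher direction.

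Of the other Pol III classes 3 of 11 were called with the block, or 27.3%, a share below the 32.0% of all transcripts. ZK218.17 rose by 2.03 on the log2 scale relative to 5.8S rRNA (DESeq2, adjusted p = 1.99e-06), ZK218.12 rose by 6.75 (adjusted p = 0.0222) and Y RNA fell by 0.61 (adjusted p = 0.0599). With edgeR and the block, of these 11 only ZK218.17 was called (adjusted p = 0.0336). ZK218.17 held between 0.0156% and 0.0691% of the 5S counts of a sample, and summed 5S rRNA rose by a mean of 0.30. Salmon divides reads shared by near-identical 5S copies, and how this bears on calls of single copies was not tested. ZK218.12 had 0 counts in control replicate 3 and unlike counts in the other controls. Over all 6 samples without the block its log2 fold change was -1.204 with no adjusted p, and 6.78 without vector control replicate 2.

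The choice of 5.8S rRNA as the reference moved the median transcript and the split of the calls. Among transcripts averaging 10 counts or more, the median log2 change was -0.08 with median-of-ratios size factors and 0.09 with F31C3.11, a shift of 0.16, and with the block it went from 0.06 to 0.27. Of the calls, 57.0% were lower with median-of-ratios size factors and 47.5% with F31C3.11, and with the block the split went from 51.4% to 35.5% lower. The snoRNA calls with the block were 31 of 157, 28 of them higher, on the median-of-ratios scale, where 14.1% of all transcripts were called higher and the median log2 change of the tested snoRNAs was 0.31. The F31C3.11 size factors were 0.485, 0.804 and 1.64 in controls and 0.543, 1.70 and 1.69 with RNAi. The median-of-ratios size factors were 1.04, 0.501 and 1.09 in controls and 1.17, 1.31 and 1.41 with RNAi. These sets differ most in replicate 1, where 5.8S rRNA was low.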

How the data were processed

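Short RNA of whole worms was sequenced in 6 samples. The authors trimmed reads with Cutadapt and used Salmon with a decoy-aware WBcel235 index of all RNAs, and the deposited values are estimated counts of transcripts shorter than 300 bases, imported with tximport. All were whole numbers, so rounding changed none. Whether strand was used is not stated. Of 2526 transcripts 2506 matched the Ensembl annotation of WBcel235.

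Groups and replicate numbers came from sample titles. The main test was the DESeq2 1.42.0 Wald test (R 4.3.3, group as the only term, 10% FDR over the whole table), with edgeR 4.0.16 and a replicate block as alternatives. F31C3.11 size factors were its counts divided by their geometric mean. Across 817 transcripts, deviations from the group mean correlated at 0.553, 0.204 and 0.396 between samples numbered 1, 2 and 3, so the numbers were taken to pair the samples. Between samples of different number the correlations ran from -0.413 to 0.136, the highest between control 3 and RNAi 2. That is near the 0.204 of number 2, so the pairing is less clear there. Single values were tested by permuting the 6 labels (exact, two-sided, 20 labelings) and by sign flips over 3 pairs, in Python 3.11.15 with scipy 1.17.1. Antisense ncRNAs overlapped a tRNA gene or pseudogene on the other strand by at least 40 bases. Named transcripts were F31C3.11, the 5 copies of 5S rRNA, all 7SL, RNase P, RNase MRP and Y RNAs, the 5 transcripts most alike, and the 3 largest falls and rises among called nuclear tRNAs with a mean count of at least 10 and no overlap. Members and lists were chosen with earlier results of these data known. Both tools were run on simulated counts, with F31C3.11 set to the simulated scale of each sample without noise. The simulation had no replicate effect. It therefore cannot speak to F31C3.11 as a reference in these data or to the replicate block. Totals cover the short transcripts only and ran from 9362216 to 21685824. Sequences were not used here.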

Additional observations from a re-analysis of the deposited data

How the results depend on the processing

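The 5.8S rRNA was never called at 10% FDR under any setting run. Its log2 fold change lay between -0.54 (size factors from snoRNAs) and -0.08 (total counts) over the settings that kept all samples or left out replicate 1 in both groups, and between -0.66 and 0.058 when samples were left out in turn. It was 0.03 without vector control replicate 2 and 0.058 without *rpc-1* RNAi replicate 1. The difference in its share was 0.822 points when 5S rRNA was left out of the total, and ran from -8.06 to 4.92 points with samples left out in turn, 3 of 6 turning its direction (2.03, 2.52 and 4.92). The log2 ratio to 5S rRNA kept its direction in every setting but leaving out *rpc-1* RNAi replicate 1 (0.23), with a range of -0.81 to 0.23. Without replicate 1 in both groups, a choice made after seeing the data, the fold change was -0.35, the share difference -1.97 points and the log2 ratio -0.27.

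Of 78 class ratios recomputed, 63 kept their direction and 15 turned, all with 1 sample left out. The ranges were -0.94 to 0.69 for mitochondrial tRNAs (turned to 0.69, 0.42 and 0.16), -0.51 to 0.66 for 7SL RNA (-0.11, -0.19 and -0.51), and -0.36 to 0.30 for RNase P RNA (0.30, 0.20 and 0.0085). They were -1.19 to 0.13 for Y RNA (0.13), -0.12 to 0.58 for snRNAs (-0.03 and -0.12) and -0.88 to 1.13 for antisense ncRNAs (-0.45, -0.53 and -0.88). Nuclear tRNAs (-3.59 to -1.31), snoRNAs (0.21 to 0.59) and RNase MRP RNA (0.22 to 0.54) kept theirs. RNase P, RNase MRP and Y RNA have 1 transcript each, so leaving out the top transcript gave no value.

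With F31C3.11 as the size factor, 26 of 115 tested Pol III transcripts were called (22.6%, against 5.98% of all transcripts). The count was 17 of 110 with edgeR (15.5% against 3.52%) and 65 of 146 with the replicate block (44.5% against 32.0%). It was 49 of 122 with edgeR and the block (40.2% against 24.9%). Without replicate 1 in both groups it was 52 of 138 (37.7% against 26.3%). These last 2 settings were added after seeing the data. With samples left out in turn the count ran from 31 to 43, at 43 without vector control replicate 1. As shares these were 22.9% to 30.1%, against 4.62% to 10.4% of all transcripts. On all samples it was 28 of 93 with transcripts averaging under 10 counts left out (30.1% against 9.66%). At 5% FDR it was 25 of 115 (21.7% against 4.82%). Other size factors gave 35 of 136 with median of ratios (25.7% against 7.29%). With summed 5.8S and 5S rRNA as the size factor the count was 32 of 133 (24.1% against 6.76%). The block changed no call on the 5.8S rRNA. At 3 samples a group, the exact tests cannot reach p = 0.05.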
